A study of Drosophila melanogaster with 6 samples.

Results

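A set of 10 genes of the Drosophila germ line were followed in mesodermal cells that overexpressed the forkhead gene jumu: bam, vas, nos, pgc, aub, piwi, AGO3, ovo, tud and gcl. They were taken as the genes with these symbols that had a probe set assigned to exactly 1 gene in the platform annotation. Of the 10 genes, 8 were measured, each by 1 probe set, among 18769 probe sets and 11982 genes in all. No probe set of 1 gene was paired with nos or pgc, and these genes were not analysed here. A further probe set was assigned to vas together with wwk and was not used for vas.

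The study compared 2 genotypes with 3 arrays each. In both, twi-GAL4 drove UAS-2EGFP in cells that express Twist, and the GFP-positive cells were sorted from embryos kept at 29 °C until late stage 11 to early stage 12. The overexpression genotype, twi-GAL4 UAS-2EGFP/UAS-jumu, made Jumu under the same driver throughout those cells, and the control was twi-GAL4 UAS-2EGFP, for which the labels name no transgene in place of UAS-jumu. The driver is mesodermal, so the germ cells themselves are not a labelled target of the transgene. The labels number the replicates but do not say if each had its own embryo collection. The p-values therefore cover variation among these samples alone, and that variation may be technical.

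In the fly, germ cells form at the posterior pole of the embryo from germ plasm, a cytoplasm in which Vasa, Tudor and Aubergine gather around the RNAs of nos, pgc and gcl. These pole cells then pass through the gut wall and reach the mesoderm, where they meet the somatic cells of the gonad. Aub, Piwi and AGO3 are the PIWI proteins of the fly and carry piRNAs, small RNAs that silence transposable elements. The gene bam acts later, in the gonads, where Bam drives daughters of germ line stem cells into differentiation. Values below are log2 signals per probe set after quantile normalization between arrays, and a difference is the jumu mean minus the control mean on that log2 scale. A level of 1 probe set is not comparable with that of another.

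The jumu probe set checked the labels: its log2 signal was 13.62, 13.35 and 13.69 in the 3 UAS-jumu arrays and 11.35, 11.56 and 11.44 in the controls. Markers of mesoderm were present in both groups, with htl at 11.30 against 10.27 in controls and twi at 9.90 against 9.20. Of 15 mesodermal genes measured, the groups were apart in 9 that were higher in UAS-jumu arrays and 2 that were lower. Over all genes, 16.6% were apart as higher and 17.5% as lower. The gene lists here and below were chosen with earlier results of these data known, so their shares do not test them. The neuron gene elav was bright too, at 12.44 against 13.32. Among genes of germ plasm and germ cells, vas and osk, the organizer of germ plasm, had means under a log2 signal of 6 in both groups. So did zpg, a gap junction gene of germ cells (5.86 against 5.37). Such dim genes made up 5 of 20 measured genes of germ plasm and pole cells and 7 of 27 of the piRNA pathway. In the testis list they were 17 of 22. Below a mean log2 signal of 6 the probe sets spread widely between replicates, with a median SD of 1.13 from 3 to 6 against 0.20 from 6 to 9. In sorted cell pools, more cells of a type and more RNA per cell cannot be told apart.

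Among the measured genes bam rose, and it was the 1 gene of the 8 to pass an adjusted p of 0.05 (12.5%, where 3.32% of all 11982 genes passed, 1.61% as higher and 1.71% as lower). The set was chosen with earlier results of these data known, so these shares do not test it. The probe set of aub stood higher in the UAS-jumu arrays by almost as much, and that of ovo lower, but neither passed. The groups did not overlap in these 3 genes of 8 (37.5%), a share near the 34.1% of all genes. All 3 were among the 6 genes of the set with a mean log2 signal of at least 6. Of all genes at such levels, 51.9% had groups that did not overlap. The differences of vas, AGO3, piwi, tud and gcl lay within the spread of overlapping groups. The median difference of the 8 genes was 0.34, beside -0.01 over all genes, and 0.09 in the values as deposited. Relative to the median of all probe sets it was 0.34 after quantile normalization and 0.20 in the values as deposited.

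**Figure D1:**
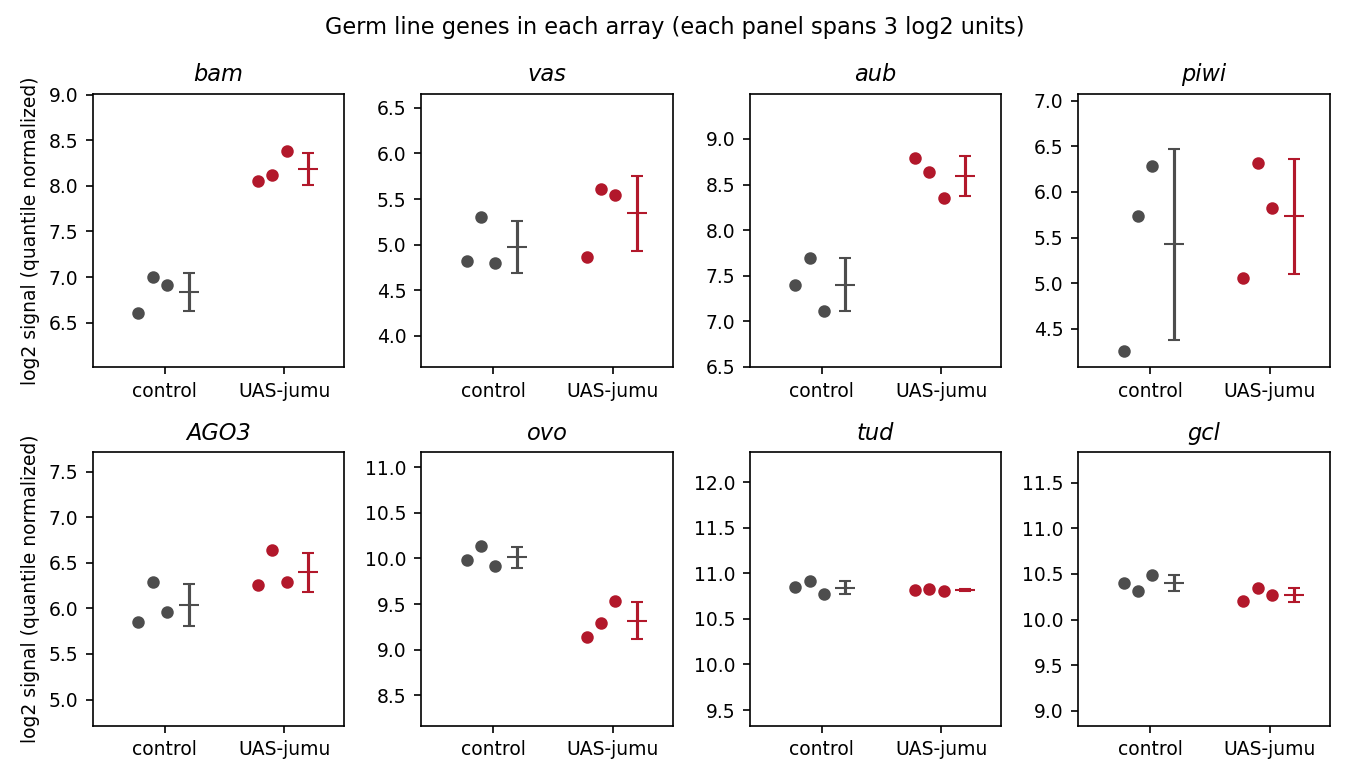
Log2 signal of the 8 measured germ line genes in each of the 3 control arrays (grey) and 3 UAS-jumu arrays (red), with the group mean and SD beside the points; each panel spans an equal range of the log2 scale, so panels differ in level but not in scale. The groups are apart for bam, aub and ovo and overlap for the 5 other genes.

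The differentiation gene bam had log2 signals of 8.05, 8.12 and 8.38 in the UAS-jumu arrays and 6.60, 7.0 and 6.92 in the controls. Every jumu array lay above every control, with a gap of 1.05 between the groups. The means were 8.18 ± 0.17 (SD, n = 3) and 6.84 ± 0.21 (SD, n = 3), and the SDs were close to the median SD of 0.22 among probe sets within 0.5 log2 units of its level. The difference was 1.35 ± 0.16 (SE), a 2.54-fold higher signal, with a 95% interval of 0.92 to 1.77 and an adjusted p of 0.0356 (limma, Benjamini-Hochberg over 18769 probe sets). Of all genes, 656 (5.47%) had a difference at least as large, many of them dim, and 68 (0.568%) had one that also passed. The call ended on leaving out a single array, whichever of the 6 it was, with differences of 1.23 to 1.44 and adjusted p from 0.0961 to 0.129. It also ended with median centring (1.56, adjusted p = 0.113) or scaling to hybridization controls (1.86, adjusted p = 0.0645). Without 1 array, 0 to 21 of 18769 probe sets passed, and the jumu probe set itself did not (adjusted p from 0.0628 to 0.104). With an intensity trend in the variance prior the adjusted p of bam was 4.88e-05, and it stayed between 0.000112 and 0.00141 when 1 array was left out.

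The gene neighbours of bam were read as a check of whether a stretch of the chromosome moved with it. Of the 3 nearest measured genes on each side, 0 of 6 passed the threshold, where 3.32% of all genes did. Before adjustment 1 was higher at a p under 0.05, as were 10.8% of all genes. That gene was Nup37, which encodes a nuclear pore protein and stands on the far side of 2 annotated genes from bam. Its log2 signal was 8.99, 9.12 and 8.95 in the UAS-jumu arrays against 8.48, 8.17 and 8.56 in controls, so the groups did not overlap (difference 0.62 ± 0.14 SE, adjusted p = 0.105). The groups were also apart for Nup358 and Jhbp7, higher in UAS-jumu arrays, and for CG11857, lower. They were apart in 34.1% of all genes and in 51.9% of those with a mean log2 signal of at least 6. The next gene, Nup358, also of the nuclear pore, differed by 0.24 ± 0.10 (SE, adjusted p = 0.292), and CG11857 by -0.10 ± 0.10 (SE, adjusted p = 0.683). On the other side CG11854, whose annotated span overlaps that of bam, had a difference of 0.53 ± 1.20 (SE, adjusted p = 0.865) from overlapping groups with means of 4.17 and 3.64. Sil1 differed by 0.12 ± 0.17 (SE), and the dim probe set of Jhbp7 by 2.06 ± 0.80 (SE, adjusted p = 0.257). Whether probes of bam could also read CG11854 was not tested.

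The genes whose values over the 6 arrays were most like those of bam were found by Pearson's r among 6463 genes with a mean log2 signal of at least 6. They were akirin (r = 0.999), Gcna (r = 0.998), yki (r = 0.998), az2 (r = 0.997) and CSN4 (r = 0.997). In 5.63% of these genes r was at least 0.95. The 6 arrays fall into their 2 genotypes, and r mostly reads that split. Gcna, a relative of the germ cell nuclear antigen of mammals, was at 9.93, 10.02 and 10.16 in the UAS-jumu arrays and 8.70, 9.08 and 8.93 in controls, and rose by 1.13 ± 0.14 (SE, adjusted p = 0.0367), a call that ended when any 1 array was left out (adjusted p from 0.0897 to 0.133). The other 4 had smaller differences that did not pass, from 0.28 for yki, the Hippo pathway coactivator, to 0.45 for az2.

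Among the PIWI genes aub differed most. Aub is a cytoplasmic protein of nuage and germ plasm that cuts transposon RNA together with AGO3. Its probe set gave 8.79, 8.63 and 8.36 in the UAS-jumu arrays and 7.40, 7.69 and 7.12 in controls. The lowest jumu array lay 0.66 above the highest control. The means were 8.59 ± 0.22 (SD, n = 3) and 7.40 ± 0.29 (SD, n = 3), and the difference was 1.19 ± 0.21 (SE), with a 95% interval of 0.66 to 1.72 and an adjusted p of 0.0615, so aub did not pass. Its adjusted p was 5.38e-05 with an intensity trend, under which 21.2% of all genes passed. With dim probe sets (mean log2 signal under 6) left out it was 0.00415, and 37.2% of the 6464 genes kept passed. Averaging the probe sets of each gene before the fit, which tested fewer rows, brought bam and aub past the threshold along with 7.18% of all genes.

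The gene piwi encodes the nuclear PIWI protein, which also acts in somatic cells of the ovary, and 2 annotated genes lie between it and aub. Its log2 signals were 5.06, 6.31 and 5.82 in the UAS-jumu arrays and 4.26, 5.73 and 6.28 in controls. The groups overlapped and the control SD was 1.05, so the difference of 0.31 ± 0.64 (SE, adjusted p = 0.852) had a 95% interval from -1.35 to 1.96, which spans the difference of aub. The difference between these 2 genes was not tested. AGO3, the partner of Aub in the ping-pong cycle that amplifies piRNAs, was at 6.26, 6.64 and 6.29 against 5.85, 6.29 and 5.96. Its groups overlapped narrowly, in that the lowest jumu array was under the highest control (difference 0.36 ± 0.18 SE, 95% interval -0.11 to 0.84, adjusted p = 0.375).

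The transcription factor gene ovo was lower in the UAS-jumu arrays, at 9.13, 9.29 and 9.53 against 9.99, 10.14 and 9.92. Every jumu array lay below every control, by at least 0.38. The difference was -0.69 ± 0.15 (SE, 95% interval -1.07 to -0.31, adjusted p = 0.0903) and did not pass. Of all genes, 15.2% had a difference at or below it. It passed with an intensity trend (adjusted p = 4.74e-05), as did 21.2% of all genes. With dim probe sets left out it also passed (adjusted p = 0.0067), as did 37.2% of the genes kept. With median centring the difference of ovo was -0.39 (adjusted p = 0.501, or 0.119 with the trend added). With scaling to poly-A controls it was 0.24, and with scaling to hybridization controls -0.09. The ovo locus makes germ line factors and also Shavenbaby, the factor of epidermal cells that shapes their cuticle, and which of its transcripts the probe set read was not tested. Epidermal and tracheal genes were lower in the same arrays. Of 13 measured, 4 fell (grh, kni, pyr and SoxN, 30.8%) and 0 rose, where 1.71% of all genes fell. This list too was chosen with earlier results known, so the share does not test it. The median difference of the 13 genes was -0.65, which turned to 0.16 with scaling to poly-A controls. The summed linear signal of those 13 genes was 7034 to 7471 in UAS-jumu arrays and 12143 to 12589 in controls. SoxN alone made up 34.5% to 38.9% of it in each array. The part of these genes in the value of ovo was not tested.

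Of the germ plasm genes, tud and gcl were well above background and differed little. Tudor is the scaffold protein that binds Aub through methylated arginines. Its transcript was at 10.82, 10.82 and 10.81 in the UAS-jumu arrays and 10.85, 10.91 and 10.77 in controls, so all jumu values lay inside the range of the controls. The difference was -0.03 ± 0.09 (SE, adjusted p = 0.918), and its 95% interval of -0.27 to 0.21 does not contain the difference seen for bam. Germ cell-less, which pole cells need in order to form, was at 10.20, 10.35 and 10.27 against 10.40, 10.31 and 10.49, again with overlap (difference -0.13 ± 0.11 SE, 95% interval -0.40 to 0.14, adjusted p = 0.594). Both signs depend on the scaling: with median centring the differences were 0.28 for tud and 0.17 for gcl.

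Vasa, a DEAD-box RNA helicase, is the usual marker of germ cells at every stage. The vas probe set was dim, at 4.87, 5.61 and 5.55 in the UAS-jumu arrays and 4.82, 5.30 and 4.80 in controls. The groups overlapped, and the difference was 0.37 ± 0.27 (SE, 95% interval -0.34 to 1.08, adjusted p = 0.55). The probe set shared by wwk and vas differed by -0.80 ± 1.08 (SE). The interval of the vas probe set leaves room for a rise of up to 1.08 or a fall of up to 0.34.

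**Figure D2:**
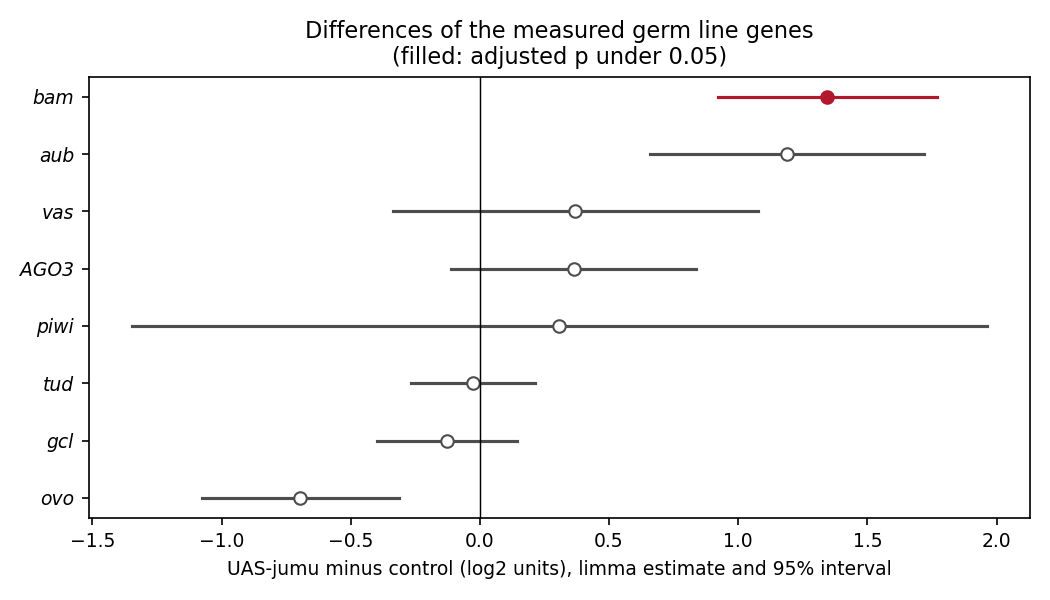
Difference between UAS-jumu and control arrays in log2 units for the 8 genes, with the limma estimate (circle) and its 95% interval (line); the filled circle passed an adjusted p of 0.05. The interval of bam runs from 0.92 to 1.77, the interval of piwi crosses 0 widely, and that of tud is narrow around 0.

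Differences of all genes shift with the way the arrays are scaled, so each gene was also set against the median difference of all probe sets. That median was -0.01 after quantile normalization, 0.16 with median centring, -0.11 in the values as deposited, 0.46 with scaling to hybridization controls and 0.78 with scaling to poly-A controls. Relative to it, bam was higher by 1.35 to 1.40 and aub by 1.20 to 1.28 under these 5 scalings. AGO3 stood 0.28 to 0.37 above the median, vas 0.22 to 0.38 and piwi 0.18 to 0.32. Relative to the median ovo ran from -0.69 to -0.55, whereas tud (-0.02 to 0.12) and gcl (-0.12 to 0.01) stayed near it. With the poly-A scaling, which raised most genes, 6 of the 8 genes passed as higher, all but piwi and ovo, where 45.8% of all genes passed.

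**Figure D3:**
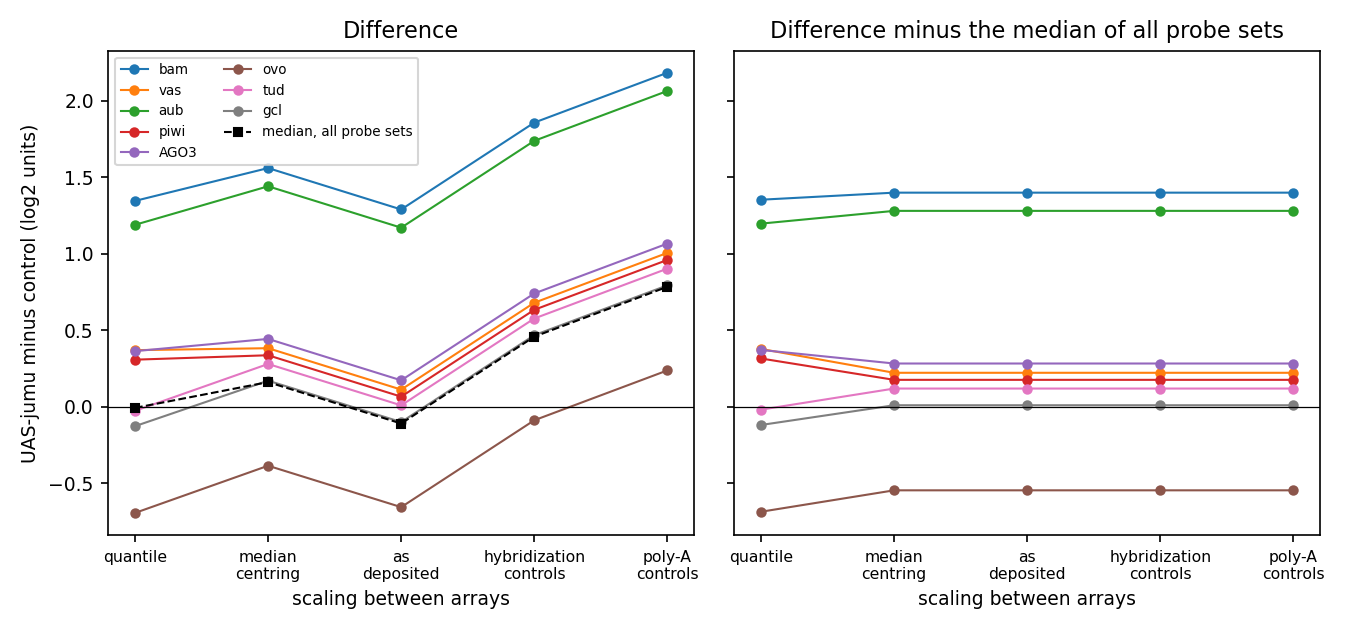
Difference between UAS-jumu and control arrays in log2 units under 5 scalings of the arrays, for each of the 8 genes (coloured lines) and the median of all probe sets (black dashes), on the left as it stands and on the right minus that median. The last 4 scalings shift whole arrays, so their values on the right are equal by construction; bam and aub lie above the other genes throughout and ovo below.

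The wider piRNA pathway was given by a list of 30 other genes, of which 27 were measured. Of these 0 rose and 0 fell with limma, and before adjustment 7 were higher and 1 lower at a p under 0.05, as were 10.8% and 11.7% of all genes. The median difference was 0.11. The smallest p belonged to nxf2, a factor of silencing in the nucleus (9.55 against 8.98, difference 0.57 ± 0.10 SE, adjusted p = 0.0654), to zuc, the nuclease that makes piRNA ends (9.68 against 9.16, 0.52 ± 0.10 SE, adjusted p = 0.0736), and to csul, which methylates arginines of PIWI proteins (10.12 against 9.72, 0.40 ± 0.09 SE, adjusted p = 0.101). With an intensity trend 7 of the 27 passed as higher and 0 as lower, where 10.3% and 10.9% of all genes did. The other genes of this list with an unadjusted p under 0.05 were cuff (difference 0.40), vret (0.41), Panx (0.38) and armi (3.22, from a dim 3.39 in controls), with positive differences, and Hen1 (-0.81).

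Of 20 measured genes of germ plasm and pole cells, 1 rose and 1 fell (5% each, where 1.61% of all genes rose and 1.71% fell), with a median difference of 0.02 (-0.04 in the values as deposited). The gene that fell was capu, a formin that nucleates actin in the oocyte (7.19, 7.05 and 7.06 against 8.22, 7.97 and 8.08 in controls; difference -0.99 ± 0.12 SE, adjusted p = 0.033). The gene that rose was CycB, the mitotic cyclin whose RNA is held in pole cells but which every dividing cell uses (difference 0.65 ± 0.09 SE, adjusted p = 0.0408). Both calls ended when any 1 array was left out, with the replicate block, with median centring (adjusted p = 0.184 for capu and 0.154 for CycB) and with scaling to hybridization controls (0.246 and 0.0758), and with scaling to poly-A controls the difference of capu was -0.15 (adjusted p = 0.563). Next in order of p was tsu, which encodes a core protein of the exon junction complex, at 13.04 against 12.60 (0.44 ± 0.09 SE, adjusted p = 0.0785). The brightest of the 3 osk probe sets was dim, with 4.98 against 4.45 in controls and groups that did not overlap (adjusted p = 0.145).

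The partners of Bam and the genes of germ line stem cells did not pass. Of 23 measured genes 0 rose and 0 fell, with 6 higher and 2 lower before adjustment at a p under 0.05 (10.8% and 11.7% of all genes) and a median difference of 0.15. With an intensity trend 7 passed as higher and 2 as lower, where 21.2% of all genes passed in either direction. Dim genes were 4 of these 23, so that share too does not compare genes of like level. The groups did not overlap in 15 of the 23, 11 higher and 4 lower in UAS-jumu arrays (65.2%, where 34.1% of all genes and 51.9% of those with a mean log2 signal of at least 6 did not). The gene bgcn, whose protein binds Bam and is needed for its action, was at 7.02 against 7.01 (difference 0.02, adjusted p = 0.98), and tut, the third protein of their complex in the testis, was dim in both groups. Mei-P26, another partner in germ cells, was at 10.36 against 9.98 (0.38, adjusted p = 0.193). The smallest p belonged to loqs, a double-stranded RNA binding protein gene (-0.56 ± 0.14 SE, adjusted p = 0.113), to CSN4, a subunit gene of the COP9 signalosome (0.33 ± 0.09 SE, adjusted p = 0.143), and to stwl, needed to maintain germ line stem cells (0.42 ± 0.12 SE, adjusted p = 0.148). In adult germ line stem cells Dpp signals keep bam silent through Mad and Medea. The ligand gene dpp differed by 0.26 (adjusted p = 0.218), Mad by 0.22 (adjusted p = 0.373), and Med was dim with a difference of 1.26 (adjusted p = 0.729).

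Genes of germ cell guidance and of the somatic gonad had 0 of 17 past the threshold and a median difference of 0.07. Before adjustment 3 were higher and 0 lower at a p under 0.05 (10.8% and 11.7% of all genes). Those 3 were the GATA factor gene srp (12.79 against 12.28, 0.51 ± 0.10 SE, adjusted p = 0.0837), the transporter gene Mdr49, which was dim in controls (6.17 against 4.71, adjusted p = 0.185), and eya, a gene of somatic gonadal precursors (9.26 against 8.93, 0.34 ± 0.11 SE, adjusted p = 0.193). The testis list held 22 measured genes, 17 of them with a mean log2 signal under 6. Its 1 call was dan, a transcription factor gene of eye and antenna that was not meant for a testis list, which fell by 0.98 (SE 0.12, adjusted p = 0.0367). Without dan 0 of 21 passed, with 3 higher and 1 lower before adjustment; Mst84Da (5.00 against 3.89, adjusted p = 0.0838) and can (1.29 against 4.0, adjusted p = 0.135) had the smallest p and were dim in both groups.

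In the 4 pooled germ line and gonad lists 86 genes were measured, and 1 rose and 1 fell (1.61% and 1.71% of all genes). Among the 67 of these with a mean log2 signal of at least 6, the groups did not overlap in 55.2%, 24 genes higher and 13 lower in UAS-jumu arrays, beside 51.9% of all genes at such levels. The testis list was not part of this pool. Markers of other cell types in the same arrays are given beside bam and aub. Their lists were chosen with earlier results of these data known, so the shares do not test them. Of 17 nervous system genes 7 fell (41.2%), namely fne, D, nerfin-1, insb, elav, repo and SoxN, and 0 rose. The median difference of the 17 genes was -0.65, which turned to 0.26 with scaling to poly-A controls. Their summed linear signal was 20656 to 20750 in UAS-jumu arrays and 34968 to 36051 in controls, of which elav alone made up 26.3% to 29.2%. Of 15 mesodermal genes htl, sns and lmd rose (20%) and 0 fell. The 15 genes had a median of 0.63 and a summed signal of 28242 to 28731 against 21225 to 22593, of which lmd alone made up 33.5% to 43.4%. Of 18 blood cell genes PPO1 and Pxn fell (11.1%) and 0 rose, although the median was 0.43. Before adjustment 8 of the 18 were higher and 3 lower at a p under 0.05 (10.8% and 11.7% of all genes). The groups were apart in 10 blood cell genes that were higher and 4 that were lower (77.8%). They were apart in 34.1% of all genes and in 51.9% of those with a mean log2 signal of at least 6. The collagen gene vkg differed by 0.53 (adjusted p = 0.0638), and 2 hemocyte genes that were dim in controls by more, He at 6.65 against 1.69 (adjusted p = 0.0646) and Hml at 7.99 against 3.13 (adjusted p = 0.105). The summed signal of blood cell genes was 59563 to 60454 against 59264 to 60927, of which Ppn alone made up 36.4% to 40.9% in each array. The part of these other cells in the values of bam, aub and ovo was not tested.

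**Figure D4:**
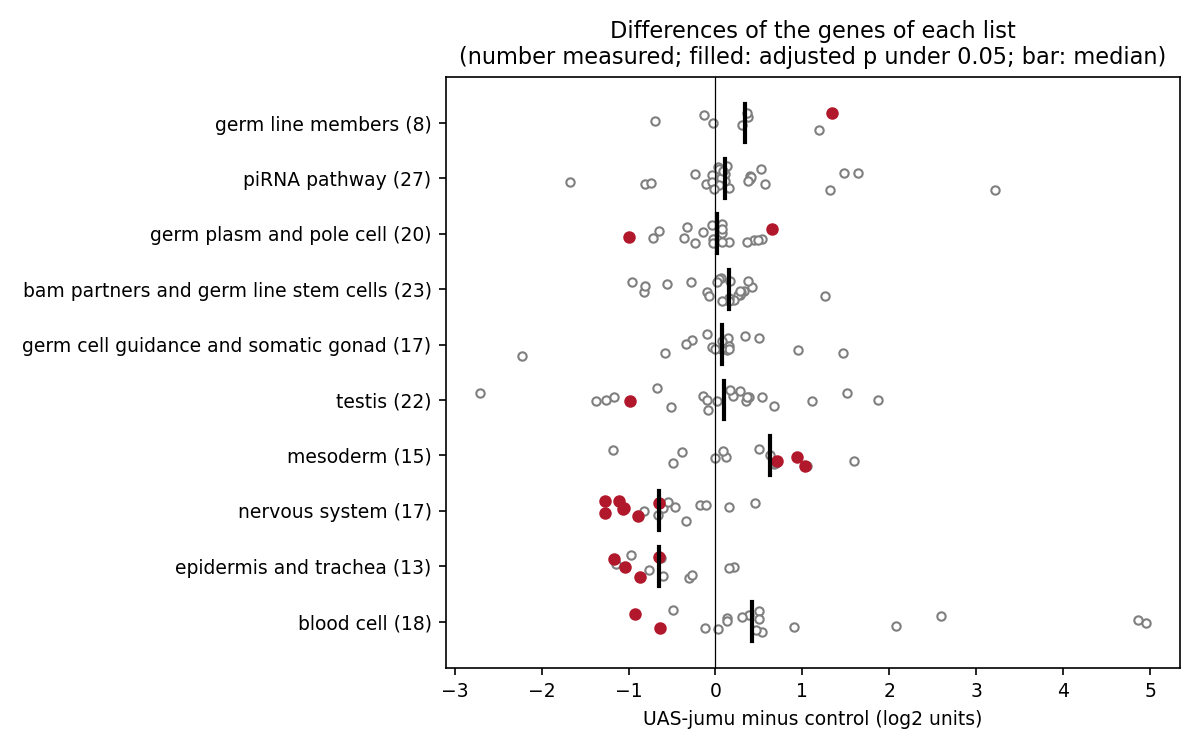
Difference between UAS-jumu and control arrays in log2 units for every measured gene of each list (1 circle a gene, filled where the adjusted p is under 0.05), with the list's median as a black bar and the number of genes measured in parentheses. Among the 8 germ line genes bam is filled, the piRNA list has 0 filled circles, and the nervous system list lies mostly below 0; the filled circle in the testis list is dan, and SoxN stands in both the nervous system and the epidermis lists.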

How the data were processed

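RNA of sorted cells was measured on 6 arrays. The authors deposited 1 value per probe set and array, taken here as log2 signals because they run from -1.73 to 16.4; per the submitters' processing notes the package affy was used, whereas its version and settings (background correction, normalization, probe summary) were not given in the sources. Medians of the deposited log2 values by array ran from 5.09 to 5.64, so quantile normalization was applied by a rule written for that case. Of 18952 probe sets 183 Affymetrix controls were left out. Probe sets with 1 gene in the platform annotation numbered 13647, of which 13544 matched a RefSeq gene table (Release 6) by gene identifier; the vas probe set did not match and kept its annotated symbol. That table gave the order of genes only. For counts over genes, the probe set with the highest mean stood for the gene.

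Tests were made per probe set by limma 3.58.1 under R 4.3.3 (lmFit, eBayes, two-sided, without covariates). P-values were adjusted by Benjamini-Hochberg over 18769 probe sets, and "rose" and "fell" mean an adjusted p under 0.05. An exact permutation test of 3 against 3 cannot go below 0.1. The number of arrays limits the precision, and no depth applies.

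The members and the 9 gene lists were chosen with earlier results of these data known. Genes named were the members, jumu, the 3 nearest measured genes on each side of bam, the 5 genes most like it over the arrays, and in each list up to 8 genes past the threshold or else the 3 with the smallest p. Further list genes (twi, osk, zpg, bgcn, tut, mei-P26, dpp, Mad, Med, He, Hml, Ppn and 5 of the piRNA list) were named after their values were seen. Alternatives were other scalings, filters on dim probe sets, variance priors, array weights, a replicate block, leaving out each array and averaging the probe sets of a gene; the intensity trend combined with another choice was added after seeing the data.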

Additional observations from a re-analysis of the deposited data

How the results depend on the processing

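bam stayed higher under all 24 alternatives. Its difference was 1.23 to 1.44 without 1 array, 1.56 with median centring, 1.86 with scaling to hybridization controls and 1.35 with the replicate block (adjusted p = 0.238), and none of these passed. The replicate numbers did not pair the arrays (correlations of same-numbered deviations -0.01, 0.003 and 0.01), and the block left 0 of 18769 probe sets past the threshold. The count of the 8 genes past the threshold, 1 as reported, was 0 with median centring, scaling to hybridization controls, the replicate block and without any 1 array. It was 3 (bam, aub and ovo) with either filter on dim probe sets, the intensity trend, plain or robust, and the trend with the block or without any 1 array, and 2 with the trend and median centring. It was 6 with scaling to poly-A controls, under which 45.8% of all genes passed, and 2 when the probe sets of each gene were averaged, where fewer rows were tested.

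Some signs turned with the setting, among them those of the called genes SoxN and Pxn. For tud the difference was 0.28 with median centring, with or without the trend, 0.0087 in the values as deposited, 0.58 with scaling to hybridization controls, 0.90 with scaling to poly-A controls and 0.0064 without control replicate 2, with or without the trend, within -0.062 to 0.0064 over the arrays left out. For gcl it was 0.17 with median centring, with or without the trend, 0.47 and 0.79 with the control scalings. For piwi it was -0.28 without control replicate 1, with or without the trend, and up to 0.73 without another array. With scaling to poly-A controls ovo was at 0.24, SoxN at 0.27 and Pxn at 0.26. The cause was not tested. Over all probe sets, 519 passed as reported, 0 to 21 without 1 array, 20 with median centring and 3096 with the intensity trend. Signals under a mean log2 level of 6, as for vas and piwi, limit what can be seen.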
